A study of Saccharomyces cerevisiae with 20 samples.

Results

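The interaction between loss of a wobble uridine modification and the choice of a second lost anticodon loop modification was measured as a difference of differences between 4 double mutants of budding yeast. In each wobble background, *elp3* or *urm1*, the *deg1* double mutant was compared with the *tcd1* double mutant, and the *urm1* difference was then subtracted from the *elp3* difference. The contrast used 14 of the 20 poly(A) RNA-seq libraries of the study and was tested for 5849 of the 7126 listed genes, of which 5524 lie outside chromosome XI and are counted here. The genes described in most detail are the 1234 for which exchange of *deg1* for *tcd1* acted in opposite directions in the *elp3* and the *urm1* background.

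Transfer RNAs that read codons ending in A or G carry modified uridines at the wobble position of the anticodon, and further modified bases lie elsewhere in the anticodon loop. Elp3 is the catalytic subunit of Elongator, which starts the side chain at the wobble carbon, and Urm1 is the ubiquitin-like sulfur carrier that donates the thio group to the same uridine in a subset of tRNAs. Deg1 is a pseudouridine synthase that acts in the anticodon loop, and Tcd1 closes the ring of the cyclic t6A nucleoside beside the anticodon. The study paired either wobble defect with loss of Deg1, a combination known to impair the tRNA for glutamine that reads CAA, or with loss of Tcd1, a combination known to impair the tRNA for lysine that reads AAA.

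All strains were in the *S. cerevisiae* laboratory background BY4741 and were grown in synthetic minimal medium with lysine of the unlabelled form. The mutant groups were *elp3 deg1 lys2* (4 libraries), *urm1 deg1 lys2* (4 libraries), *elp3 tcd1 lys2* (3 libraries used) and *urm1 tcd1 lys2* (3 libraries used), and WT was labelled *lys2* as well, so that all groups shared this marker. The WT group had 4 libraries, entered the fit with a weight of 0 in the contrast and serves as the reference level below. The sources used here do not say whether replicates came from separate cultures or clones, so p-values measure the spread between these libraries only.

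The libraries held 3273876 to 3926511 counted reads, and 3 reads, taken as the detection floor, correspond to 0.764 to 0.916 counts per megaread (CPM). *ELP3*, *URM1* and *DEG1* gave at most 7 reads in each library labelled with their deletion and used here, whereas *TCD1* gave 0 to 2 reads in the *urm1 tcd1* libraries but 147 to 185 reads in the *elp3 tcd1* libraries against 377 to 407 in WT. Loss of *TCD1* in the *elp3 tcd1* group therefore rests on the label. The fourth library labelled *elp3 tcd1* had 345 *ELP3* reads and 0 *URM1* reads, and the fourth labelled *urm1 tcd1* had 5 *ELP3* reads and 174 *URM1* reads. Both libraries went against their labels and were left out of the contrast. Genes on chromosome XI had a median interaction value of 0.98 on the log2 scale, because their median level in the *urm1 tcd1* libraries lay 1.00 to 1.01 log2 units above WT while the other libraries of the contrast lay between -0.00 and 0.12. These 325 genes were counted apart.

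Counts were compared with edgeR's quasi-likelihood test, and a gene was called at a Benjamini-Hochberg adjusted p of at most 0.01 over all genes tested. In the *elp3* background 3303 of 5524 genes (59.8%) differed between the *deg1* and the *tcd1* double mutant, 1648 (29.8%) higher and 1655 (30%) lower with *deg1*. In the *urm1* background 3699 genes (67%) differed, 1999 (36.2%) higher and 1700 (30.8%) lower with *deg1*. The interaction was called for 3678 genes (66.6%), with 1731 (31.3%) above 0 and 1947 (35.2%) below 0. For most genes the difference between the *deg1* and the *tcd1* strain was thus unequal in the 2 wobble backgrounds, though often small. Of the interaction calls, 1191 had a size of at least 1 log2 unit. The background shares are high enough that a call for a single gene is the usual outcome. Only *urm1 tcd1* had the raised chromosome XI level. Effects of the lost modifications therefore cannot be told apart from those of this chromosome or of other differences between the strains.

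Of the 2320 genes called in both backgrounds, 1086 moved in the same direction and 1234 in opposite directions (22.3% of all genes). Across the 5524 genes the *elp3* and the *urm1* difference had a Pearson r of 0.071 and a Spearman rho of -0.023, given as a description, since genes are not independent replicates. The opposite-direction genes comprised 589 genes (10.7%) that were higher with *deg1* than with *tcd1* in *elp3* and lower in *urm1*, termed positive genes here, and 645 genes (11.7%) with the reverse pattern, termed negative genes. All 1234 were also called for the interaction, which their choice makes likely, so the values below describe them without a further test. For 557 positive and 607 negative genes the libraries of the *deg1* and *tcd1* groups did not overlap in either background. Their choice on the same libraries makes this likely too, and the share without overlap over all genes was not counted. The gene nearest to the threshold on the inside was *SFH5*, at -0.25 in *urm1* with an adjusted p of 0.00998 by edgeR, and the nearest on the outside was *RPL35B*, at 0.21 in *elp3* with an adjusted p of 0.01 by edgeR that lay just above the threshold. With upper quartile in place of TMM scaling the median interaction over all genes moved by -0.149, the calls were 1377 above and 2370 below 0, and the opposite-direction genes were 437 positive and 869 negative.

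**Figure D1:**
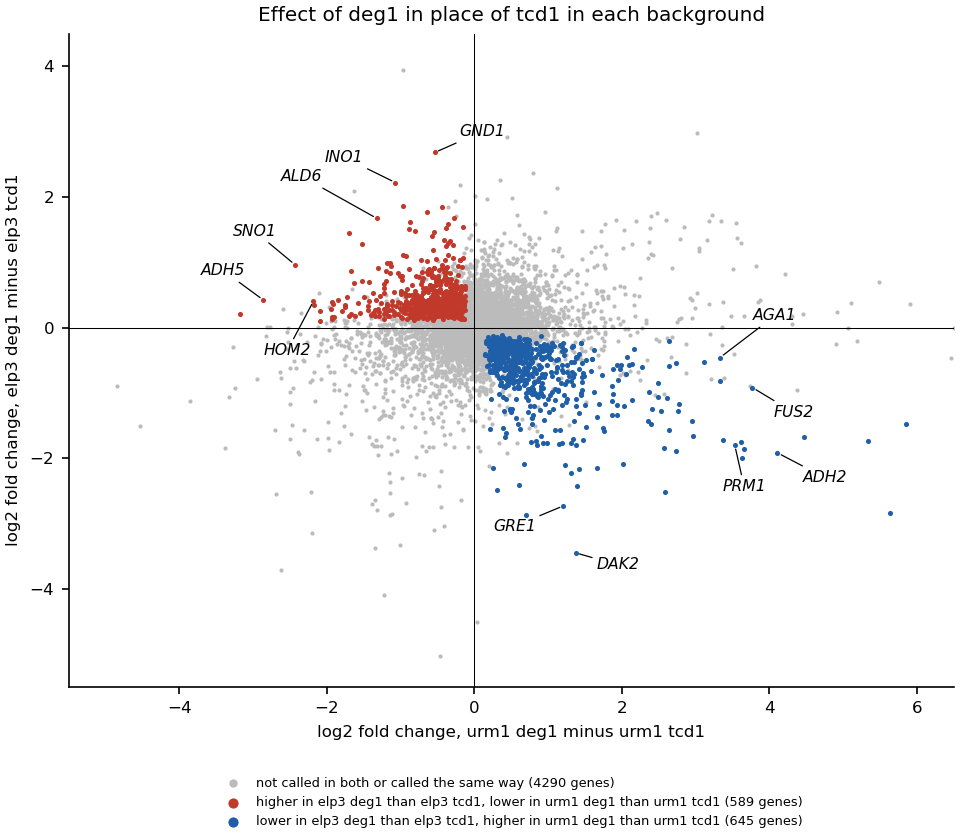
Each point is a gene outside chromosome XI, with the log2 fold change of *urm1 deg1* over *urm1 tcd1* on the x axis and of *elp3 deg1* over *elp3 tcd1* on the y axis, and 6 genes lie outside the axes. The 589 positive genes fill the upper left and the 645 negative genes the lower right quadrant, and the cloud as a whole has no slope (Pearson r 0.071).

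The direction of an opposite-direction gene does not say which strain stood apart. Among positive genes the highest of the 4 mutant means was that of *urm1 tcd1* for 348 genes (59.1%) and that of *elp3 deg1* for 241 (40.9%). Among negative genes *urm1 deg1* was highest for 337 (52.2%) and *elp3 tcd1* for 308 (47.8%). Against WT the positive genes had medians of 0.28 in *elp3 deg1*, -0.14 in *elp3 tcd1*, -0.13 in *urm1 deg1* and 0.39 in *urm1 tcd1* on the log2 scale. The negative genes had medians of -0.26, 0.28, 0.31 and -0.32 in the same order. By the definition of the classes, only *elp3 deg1* or *urm1 tcd1* can be highest for a positive gene. Likewise only *elp3 tcd1* or *urm1 deg1* can be highest for a negative gene. The *urm1* difference was larger in size than the *elp3* difference for 61% of positive and 59.2% of negative genes.

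Effects of at least 0.5 log2 units in both backgrounds were seen for 88 positive and 253 negative genes, and effects of at least 1 for 4 positive genes (*MET13*, *ECL1*, *ALD6* and *INO1*) and 68 negative genes. The 2 classes also differed in abundance. Positive genes had a median level of 258 CPM and together held 344895 CPM in *elp3 deg1*, 240333 in *elp3 tcd1*, 231568 in *urm1 deg1* and 376991 in *urm1 tcd1*, against 263387 in WT. Negative genes had a median of 69.5 CPM and together held 57341, 87989, 92529 and 57520 CPM in the same order, against 69511 in WT. Across all genes the interaction value rose with the mean level (Spearman rho 0.35). Of the 324 genes above 500 CPM, 52.5% were positive and 5.86% negative with a median interaction of 0.83, whereas of the 2524 genes between 20 and 100 CPM 4.68% were positive and 14.3% negative with a median of -0.22. Genes above 500 CPM took 42.4% of the scaled counts in *elp3 deg1*, 37.5% in *elp3 tcd1*, 36.5% in *urm1 deg1*, 41.3% in *urm1 tcd1* and 37.4% in WT, and the part of this shift in the values of single genes was not tested.

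**Figure D2:**
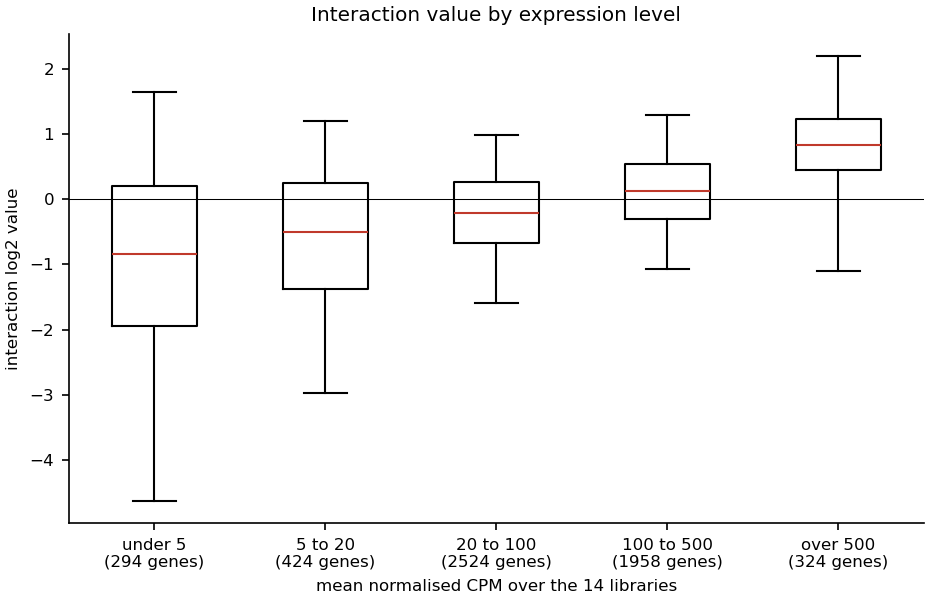
Box plot of the interaction log2 value (y axis) for genes grouped by their mean CPM over the 14 mutant libraries (x axis), with boxes over the middle quartiles and whiskers from the 5th to the 95th percentile. The median climbs from -0.85 for the 294 genes under 5 CPM to 0.83 for the 324 genes over 500 CPM.

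The counts of every list are to be read beside the shares over all 5524 genes. These were 31.3% called above and 35.2% below 0, 10.7% positive and 11.7% negative. The genes of mating and the pheromone response had the lowest median interaction value of the 40 gene lists examined. BY4741 has mating type a. Such cells make a-factor, display the Ste2 receptor for alpha-factor, and switch on fusion and arrest genes through the transcription factor Ste12. Of 29 tested genes 25 were called below 0 and 2 above 0 for the interaction, and 18 were negative opposite-direction genes. Their median interaction was -2.45, with -0.57 in *elp3* and 1.47 in *urm1*. The mean level of the group over WT was 1.24 to 1.28 log2 units in the *urm1 deg1* libraries, -0.44 to -0.42 in *urm1 tcd1*, -0.60 to -0.56 in *elp3 tcd1* and -1.14 to -1.07 in *elp3 deg1*. The *urm1 deg1* strain was thus alone in lying above WT, and *elp3 deg1* lay lowest. Genes of the alpha mating type stayed well below *STE2* (492 to 7115 reads) but moved with the groups too. *STE3*, the a-factor receptor of alpha cells, had 120 to 149 reads in *urm1 deg1*, 70 to 96 in *elp3 deg1*, 58 to 65 in *elp3 tcd1*, 27 to 44 in *urm1 tcd1* and 21 to 38 in WT. *MF(ALPHA)1*, an alpha-factor gene, had 38 to 45 reads in *urm1 deg1*, 9 to 28 in the *elp3* strains, 2 to 4 in *urm1 tcd1* and 1 to 6 in WT. Both were thus highest in the strain in which the a-specific genes were highest, and the part of other cell types in the mating gene values was not tested.

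The element TGAAAC, bound by Ste12, was found on either strand within the 300 bases before the start codon of 72.4% of these 29 genes and of 18.5% of all 5300 promoters read, and in 21.4% of the negative and 16.9% of the positive genes. Windows of 30 bases around 1 match each, read from build R64 in the direction of the gene with the element or its reverse complement in capitals, are shown for 6 of the mating genes selected for naming, which have at least 20 CPM, and for the receptor gene.
*FUS1* (chrIII:71631-71660, + strand): acgtctgtaattTGAAACaaataacgtaat
*PRM1* (chrXIV:110747-110776, + strand): tgtttcaatactGTTTCAgaagtgcgtcac
*FUS2* (chrXIII:736714-736743, + strand): tatgttacctacTGAAACagcgcatgttgg
*FAR1* (chrX:126527-126556, - strand): gacatcgtaaagGTTTCAaatgcgaaggta
*AGA1* (chrXIV:703485-703514, + strand): aacataattttcTGAAACaatattaaaaca
*ASG7* (chrX:101921-101950, - strand): ttgaaatgacttTGAAACgtaattaccgca
*STE2* (chrVI:82371-82400, + strand): gtaagtacatgaTGAAACacatatgaagaa

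*FUS1* (YCL027W, chrIII:71803-73341), which encodes a membrane protein of cell fusion, had 6.46, 8.62, 9.01 and 11.2 CPM in *elp3 deg1*, 14.6, 19.3 and 13.4 in *elp3 tcd1*, 271, 288, 279 and 261 in *urm1 deg1* and 22.7, 28.4 and 30.7 in *urm1 tcd1*, against 69.8 to 78.6 in WT. Every *urm1 deg1* library exceeded every other library. Lack of overlap between *deg1* and *tcd1* libraries in each background was a condition for naming this and the other selected genes. The interaction value was -4.16 (SE 0.21), made of -0.83 (SE 0.17) in *elp3* and 3.33 (SE 0.08) in *urm1*. *FAR1* (YJL157C, chrX:123836-126328), the inhibitor of the G1 cyclin kinase that arrests cells exposed to pheromone, had 11.2 to 18 CPM in *elp3 deg1*, 36.5 to 44.8 in *elp3 tcd1*, 249 to 284 in *urm1 deg1* and 26.3 to 41.6 in *urm1 tcd1*. It was 2.7-fold lower with *deg1* than with *tcd1* in *elp3* and 7.71-fold higher in *urm1*, an interaction of -4.38 (SE 0.16). *PRM1*, a membrane protein needed for fusion of mating cells, averaged 3.57 CPM in *elp3 deg1* (SD 0.975, n = 4), 12.4 CPM in *elp3 tcd1* (SD 1.43, n = 3), 142 CPM in *urm1 deg1* (SD 12.1, n = 4) and 12.3 CPM in *urm1 tcd1* (SD 2.01, n = 3), and had the second largest value of the genes selected for naming, at -5.32 (SE 0.26).

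Genes at other steps of the pathway were also highest in *urm1 deg1*. *STE2*, the receptor, had 141 to 164 CPM in *elp3 deg1*, 288 to 306 in *elp3 tcd1*, 1658 to 1755 in *urm1 deg1* and 536 to 567 in *urm1 tcd1* (interaction -2.61, SE 0.06). *BAR1*, the secreted protease that degrades alpha-factor, had 41.5 to 43.9, 62.6 to 63.8, 635 to 652 and 140 to 159 CPM in that order (interaction -2.69, SE 0.09). *SST2* and *GPA1*, which encode the regulator and the alpha subunit of the pheromone G protein, had interaction values of -2.76 (SE 0.10) and -2.18 (SE 0.08). Ligand, receptor, G protein and its regulator were each highest in *urm1 deg1* and lowest in *elp3 deg1*, and *MFA2*, an a-factor gene, had -2.45 (SE 0.08). *AGA1*, the anchor subunit of the a-agglutinin, had 464 to 506 CPM in *urm1 deg1* and at most 49.7 CPM in the other mutants, so that nearly all of its interaction of -3.79 (SE 0.12) came from the *urm1* background, while the *elp3* part was -0.46 (SE 0.10). *FUS2*, which acts in cell and nuclear fusion, and *ASG7*, an a-specific gene, had -4.69 (SE 0.25) and -3.94 (SE 0.19), and *FUS2* was lowest in *urm1 tcd1* (5.77 CPM) rather than in *elp3 deg1* (7.95 CPM). *IZH4*, a membrane protein of zinc homeostasis, was likewise highest in *urm1 deg1* (51.6 to 66.8 CPM) and lowest in *urm1 tcd1* (6.75 to 7.94 CPM). Its *elp3* difference was small, at -0.52 (SE 0.15), and was lost without *elp3 deg1* replicate 2 (-0.43, edgeR adjusted p 1.1e-02) or without *elp3 tcd1* replicate 3 (-0.38, edgeR adjusted p 4.1e-02).

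**Figure D3:**
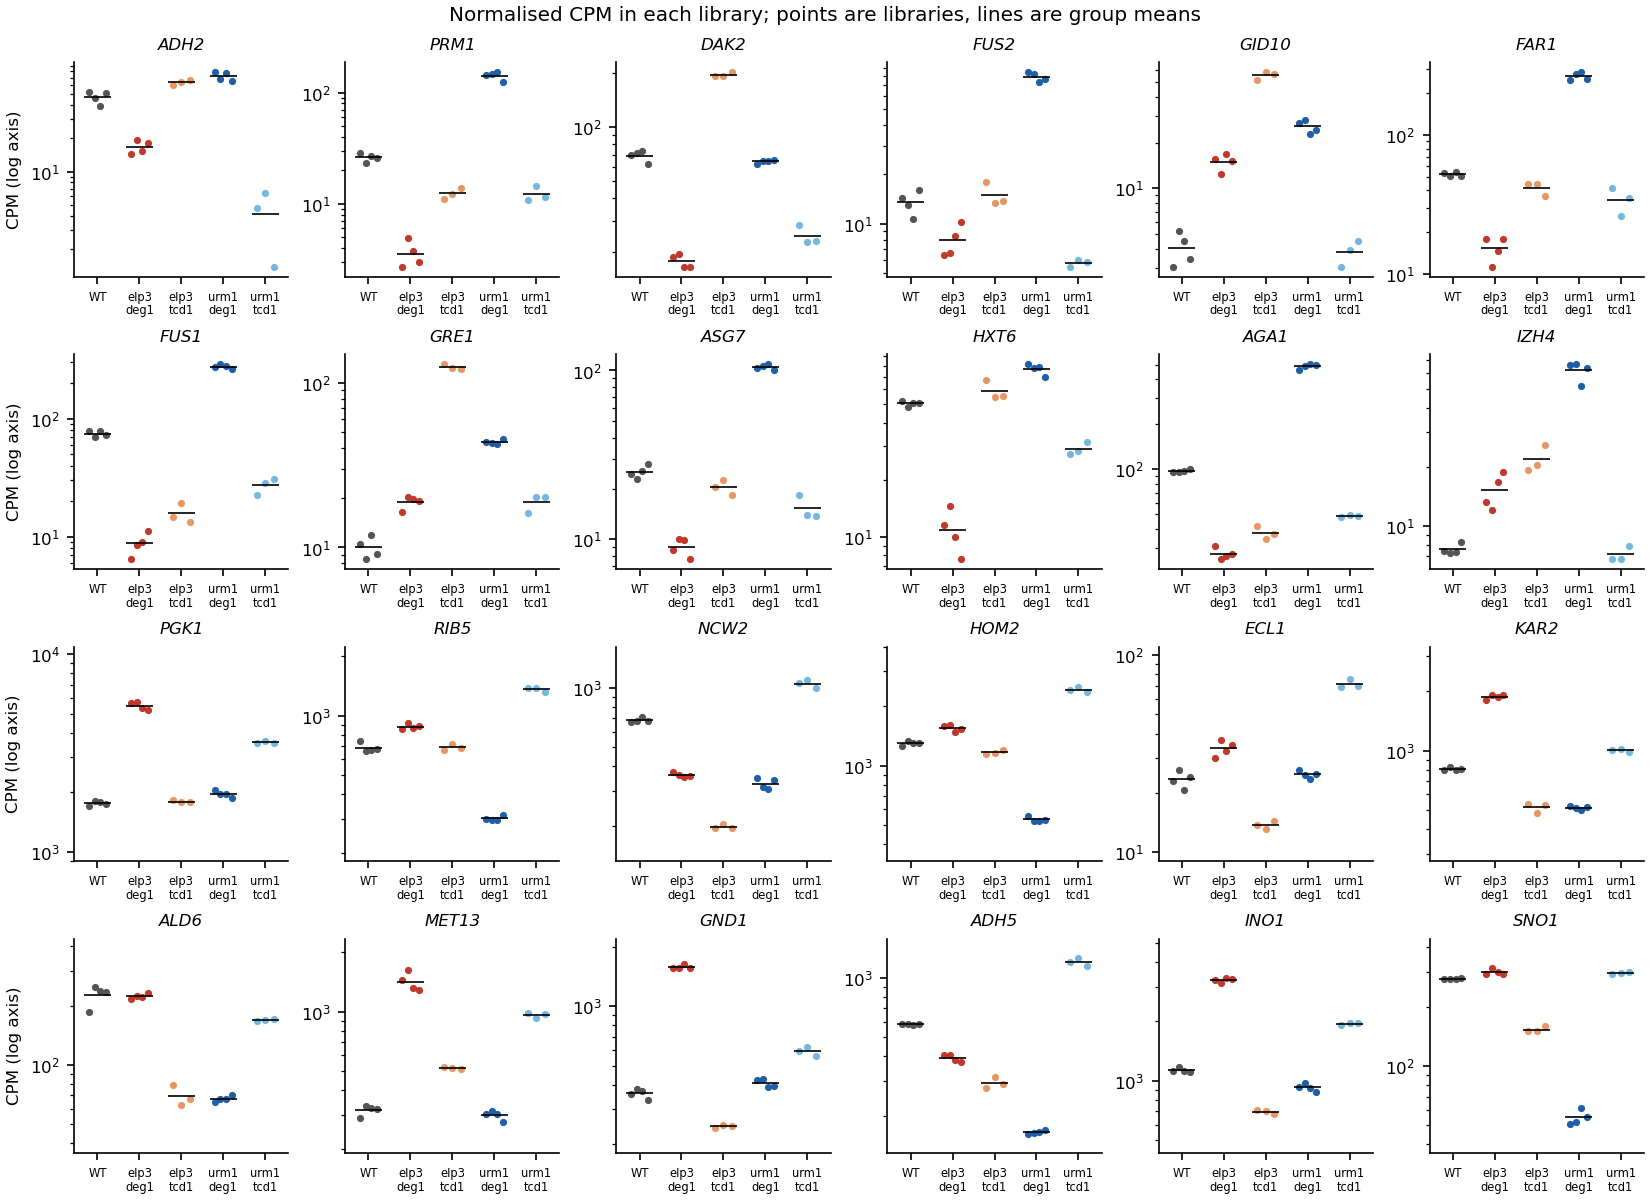
Normalised CPM on a log axis in each library of WT and the 4 double mutants for single genes, with points for libraries and lines for group means. Pheromone genes such as *FUS1* peak in *urm1 deg1* (261 to 288 CPM), *DAK2* and *GRE1* peak in *elp3 tcd1*, and *GND1* and *INO1* peak in *elp3 deg1*.

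A second set of negative genes was highest in *elp3 tcd1*. Storage carbohydrate metabolism, the synthesis and breakdown of trehalose and glycogen, had 17 of 17 tested genes called below 0 and 10 negative opposite-direction genes, with medians of -1.26 for the interaction, -0.61 in *elp3* and 0.78 in *urm1*. The mean level over WT was 1.28 to 1.36 log2 units in *elp3 tcd1*, 1.05 to 1.11 in *urm1 deg1*, 0.59 to 0.82 in *elp3 deg1* and 0.13 to 0.22 in *urm1 tcd1*. All 4 mutants lay above WT. *PGM2*, the phosphoglucomutase that opens the route to glycogen and trehalose, had 249 to 289 CPM in *elp3 deg1*, 677 to 705 in *elp3 tcd1*, 422 to 452 in *urm1 deg1*, 133 to 145 in *urm1 tcd1* and 98.1 to 106 in WT (interaction -3.04, SE 0.07). *TPS2*, the trehalose phosphate phosphatase, had 308 to 400, 662 to 687, 478 to 504 and 288 to 304 CPM in the mutants in that order (interaction -1.72, SE 0.07).

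General stress response genes had a related but unequal pattern. Of 33 tested genes, 23 were called below and 5 above 0, with 10 negative and 2 positive opposite-direction genes, and the medians were -0.72 for the interaction, -0.89 in *elp3* and 0.04 in *urm1*. Their mean level stood at 2.01 to 2.07 log2 units over WT in *elp3 tcd1* and at 0.98 to 1.16 in the other 3 mutants, so that the group's interaction came from the *elp3* background. *HSP12*, a membrane-protecting stress protein, had 828 to 940 CPM in *elp3 deg1*, 3749 to 3933 in *elp3 tcd1*, 1197 to 1289 in *urm1 deg1* and 738 to 827 in *urm1 tcd1*, against 35.8 to 42.7 in WT (interaction -2.77, SE 0.06). *GRE1*, a stress-induced hydrophilin, had 122 to 130 CPM in *elp3 tcd1*, 42.8 to 45.6 in *urm1 deg1*, 16.4 to 20.4 in *elp3 deg1* and 16.3 to 20.4 in *urm1 tcd1* (interaction -3.94, SE 0.14). *GRE3*, an aldose reductase, is one of the 2 positive members (interaction 1.98, SE 0.08).

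The stress response element AGGGG, bound by Msn2 and Msn4, was found on either strand in the same promoter window of 58.8% of the storage carbohydrate and 78.8% of the stress response genes, against 22.7% of all promoters, 25.9% of the negative and 24.1% of the positive genes. Its surroundings in the gene for the glycogen branching enzyme, *GLC3* (interaction -3.27, SE 0.09), and in *PGM2* are shown with the element in capitals.
*GLC3* (chrV:132895-132924, + strand): aagctttgtccaAGGGGctgttgcaacggt
*PGM2* (chrXIII:477805-477834, - strand): ccaggaacaaacAGGGGttgaaaagtgtaa

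Some genes for the use of nonfermentable carbon, which glucose represses, were high in both *elp3 tcd1* and *urm1 deg1*. *ADH2* (YMR303C, chrXIII:873291-874337), the glucose-repressed alcohol dehydrogenase that oxidises ethanol, had 14.5, 19.2, 15.2 and 18.2 CPM in *elp3 deg1*, 60.2, 64.4 and 66.7 in *elp3 tcd1*, 78.8, 68.6, 76.7 and 65.6 in *urm1 deg1* and 4.74, 6.39 and 1.38 in *urm1 tcd1*, with 39.0 to 51.6 in WT. The *tcd1* libraries were high in *elp3* and low in *urm1*, a 3.78-fold decrease and a 17.2-fold increase with *deg1*. The *urm1 tcd1* library at 1.38 CPM lay near the floor, so the size of the increase is uncertain. The *urm1* difference of 4.11 log2 units was 3.69 without *urm1 tcd1* replicate 3 and 4.54 without replicate 2. The interaction of -6.03 (SE 0.22) was the largest of the genes selected for naming. *MLS1*, malate synthase, averaged 25.3 CPM (SD 2.53, n = 3) in *elp3 tcd1* and 22.2 CPM (SD 3.18, n = 4) in *urm1 deg1*, against 4.38 CPM (SD 1.49, n = 4) in *elp3 deg1* and 3.68 CPM (SD 1.04, n = 3) in *urm1 tcd1*, and had an interaction of -5.09 (SE 0.29). *ICL1*, isocitrate lyase of the same glyoxylate cycle, had 69.2 to 79.9 CPM in *elp3 deg1*, 213 to 229 in *elp3 tcd1*, 183 to 203 in *urm1 deg1* and 78.7 to 94.5 in *urm1 tcd1* (interaction -2.73, SE 0.09). *FBP1*, the gluconeogenic fructose bisphosphatase, had -3.17 (SE 0.36). Of the 10 tested genes of gluconeogenesis and the glyoxylate cycle 7 were called below and 3 above 0, 4 were negative, and the median was -1.38. As a group they lay 0.33 to 0.43 log2 units above WT in *elp3 tcd1* and between -0.16 and -0.01 in *urm1 deg1*. *PYC1* and *PYC2*, the pyruvate carboxylase genes, went the other way and were lowest in *urm1 deg1*, with 437 and 351 CPM.

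Carbon uptake and glycerol metabolism added further negative genes. *DAK2* (YFL053W, chrVI:23423-25198), a dihydroxyacetone kinase, had 18.8, 19.5, 16.5 and 16.6 CPM in *elp3 deg1*, 193, 193 and 203 in *elp3 tcd1*, 62.0, 65.0, 64.7 and 65.4 in *urm1 deg1* and 28.4, 22.7 and 23.1 in *urm1 tcd1*, with 62.2 to 73.4 in WT. The *elp3 deg1* and *elp3 tcd1* libraries lay 11-fold apart, the widest *elp3* difference among the negative genes (-3.45, SE 0.08). *GID10*, a substrate receptor of the ubiquitin ligase that degrades gluconeogenic enzymes, had 51.6 to 58.4 CPM in *elp3 tcd1* and 3.05 to 4.49 in *urm1 tcd1* (interaction -4.62, SE 0.22). Among 16 tested hexose transporters 9 were called below and 4 above 0, with 4 negative and 1 positive gene and a median of -1.36. *HXT4*, a transporter used at low to intermediate glucose, had 1345 to 1363 CPM in *urm1 deg1* and 210 to 382 in the other mutants (interaction -2.85, SE 0.08). *HXT6* and *HXT7* encode nearly identical transporters, so reads could be shared between them and their values of -3.83 (SE 0.16) and -3.34 (SE 0.14) are uncertain as separate measurements.

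The cell cycle lists were lowest in *urm1 tcd1*, and that of G1 and S phase was highest in *urm1 deg1*. Of 23 tested genes of G1 and S phase 18 were called below and 2 above 0 with 5 negative genes and a median of -0.88, and of 18 mitotic genes 11 were called below and none above 0 with 4 negative genes and a median of -0.76. For both lists the *urm1 tcd1* libraries were the only mutants below WT, at -0.28 to -0.23 and -0.26 to -0.15 log2 units. The G1 and S phase list lay farthest from WT in *urm1 deg1*, at 0.957 to 1.021 above it. The mitotic list lay 0.405 to 0.498 above WT in *urm1 deg1* and 0.402 to 0.474 above it in *elp3 tcd1*. *RNR1*, the large subunit of ribonucleotide reductase, had 54.0 to 70.5 CPM in *elp3 deg1*, 88.1 to 95.3 in *elp3 tcd1*, 189 to 216 in *urm1 deg1*, 30.5 to 36.6 in *urm1 tcd1* and 20.4 to 29.2 in WT (interaction -3.23, SE 0.12). *CLB2*, a mitotic cyclin, *SWE1*, the kinase that restrains it, and *PDS1*, securin, had values of -2.88 (SE 0.24), -2.49 (SE 0.16) and -2.06 (SE 0.15). *HHF1*, a histone H4 gene, had 481 to 513 CPM in *urm1 deg1* and 196 to 227 in *urm1 tcd1* (interaction -2.07, SE 0.07).

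Several of the most negative genes lay near the detection floor and below the level of 20 CPM set for naming. *SPS2*, a sporulation wall gene named here after its values were seen, had 0.544 to 0.932 CPM in *elp3 deg1*, 4.06 to 6.91 in *elp3 tcd1*, 6 to 10.6 in *urm1 deg1* and 0 to 0.355 in *urm1 tcd1*. Its *elp3 deg1* and *urm1 tcd1* libraries thus lay at or near the floor, so no fold change is given. The negative genes included 77 with under 20 CPM and the positive genes 6.

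Glycolysis had the highest median interaction value of the lists of central carbon metabolism. Of 15 tested genes 12 (80%) were called above and 2 (13.3%) below 0, and 12 were positive and 1 negative. Over all genes 31.3% were called above and 35.2% below 0. Among genes above 500 CPM the called shares were 79.6% and 13.3%, near those of glycolysis. Of these abundant genes 52.5% were positive and the median interaction was 0.83, both lower than in glycolysis. The medians were 1.52 for the interaction, 0.85 in *elp3* and -0.41 in *urm1*. The mean level over WT was 0.85 to 0.97 log2 units in *elp3 deg1*, 0.43 to 0.48 in *urm1 tcd1*, 0.04 to 0.05 in *elp3 tcd1* and 0.02 to 0.08 in *urm1 deg1*. *PGK1* (YCR012W, chrIII:137746-138996), phosphoglycerate kinase, had 5647, 5758, 5317 and 5206 CPM in *elp3 deg1*, 1820, 1784 and 1775 in *elp3 tcd1*, 2051, 1966, 1958 and 1864 in *urm1 deg1* and 3553, 3639 and 3532 in *urm1 tcd1*, with 1700 to 1801 in WT. Only *elp3 deg1* and *urm1 tcd1* stood far above WT (interaction 2.48, SE 0.05). *HXK2*, the main hexokinase of glucose-grown cells, had 988 to 1034, 290 to 305, 469 to 491 and 688 to 780 CPM in that order, all below the 1324 to 1429 of WT (interaction 2.42, SE 0.06). *HXK1*, the hexokinase made when glucose is scarce, was the negative member, highest in *urm1 deg1* with 1083 to 1176 CPM (interaction -1.62, SE 0.07). *CDC19*, pyruvate kinase, had 1.78 (SE 0.05), and *TDH3* and *ENO2*, which have close paralogs with which reads could be shared, had 1.78 (SE 0.04) and 2.14 (SE 0.05).

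The fermentation list was split between its members. Of 9 tested genes 6 were called above and 2 below 0, with 3 positive genes, 2 negative genes and a median of 0.72. *ADH1*, the alcohol dehydrogenase that makes ethanol, had an interaction of 1.71 (SE 0.05), against the -6.03 of *ADH2*. *ADH5*, an alcohol dehydrogenase isozyme, had 376 to 407 CPM in *elp3 deg1*, 278 to 315 in *elp3 tcd1*, 162 to 170 in *urm1 deg1*, 1143 to 1257 in *urm1 tcd1* and 574 to 585 in WT. It lay above WT in *urm1 tcd1* alone (interaction 3.28, SE 0.06).

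*GND1* (YHR183W, chrVIII:470960-472429), the phosphogluconate dehydrogenase of the pentose phosphate pathway, had 1559, 1559, 1634 and 1566 CPM in *elp3 deg1*, 242, 249 and 247 in *elp3 tcd1*, 422, 426, 390 and 396 in *urm1 deg1* and 594, 625 and 558 in *urm1 tcd1*, with 333 to 381 in WT. The *elp3 deg1* libraries lay 6.43-fold above *elp3 tcd1*, the widest *elp3* difference among the positive genes (2.68, SE 0.04), while the *urm1* difference was -0.54 (SE 0.04). *ALD6* (YPL061W, chrXVI:432588-434090), the cytosolic aldehyde dehydrogenase that also makes NADPH, had 215 to 232 CPM in *elp3 deg1*, 62.7 to 78.7 in *elp3 tcd1*, 64.9 to 70.2 in *urm1 deg1*, 167 to 170 in *urm1 tcd1* and 185 to 248 in WT. In its case the strains farthest from WT were the low ones, *elp3 tcd1* and *urm1 deg1* (interaction 2.99, SE 0.11).

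The lists of amino acid synthesis had interaction medians above 0. The arginine, lysine, histidine and branched-chain lists lay below WT in *urm1 deg1* and above WT in *urm1 tcd1*. The aromatic list lay below WT in both, by 1.35 to 1.37 and by 0.05 to 0.13 log2 units. The sulfate and methionine list stayed near WT in *urm1 deg1* (-0.03 to 0.03), lay above it in *urm1 tcd1* (0.58 to 0.61) and *elp3 deg1* (0.31 to 0.34), and lay below it in *elp3 tcd1* (-0.32 to -0.28). Called above and below 0 were 13 and 0 of 14 arginine genes (median 1.23), 9 and 0 of 10 lysine genes (1.06), 6 and 0 of 7 histidine genes (1.47), 11 and 0 of 11 branched-chain genes (1.52), 9 and 2 of 15 genes of aromatic amino acids and their breakdown (1.36) and 22 and 2 of 26 sulfate and methionine genes (1.20). The median *elp3* difference was between -0.20 and 0.49 in these lists and the median *urm1* difference between -1.58 and -0.50. Positive opposite-direction genes numbered 2, 1, 4, 5, 6 and 10 in the same order, and none of these lists held a negative one. *LYS2*, the marker named in every label, still had group means of 4.24 to 30 CPM, so its own value says nothing of a working gene. BY4741 also lacks *MET17*, which fixes sulfide in the methionine pathway.

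*HOM2* (YDR158W, chrIV:770357-771454), aspartate semialdehyde dehydrogenase on the way to threonine and methionine, had 1578, 1610, 1486 and 1526 CPM in *elp3 deg1*, 1148, 1152 and 1204 in *elp3 tcd1*, 552, 525, 525 and 532 in *urm1 deg1* and 2411, 2501 and 2354 in *urm1 tcd1*, with 1256 to 1335 in WT. The *urm1* strains lay on either side of WT, 4.54-fold apart, and the *elp3* strains 1.33-fold apart (interaction 2.59, SE 0.05). *MET13* (YGL125W, chrVII:272520-274322), methylenetetrahydrofolate reductase, had 1288 to 1616 CPM in *elp3 deg1*, 511 to 522 in *elp3 tcd1*, 277 to 312 in *urm1 deg1*, 932 to 988 in *urm1 tcd1* and 290 to 331 in WT. It was one of the 4 positive genes with at least 1 log2 unit in both backgrounds (interaction 3.15, SE 0.07). *SUL1*, the high affinity sulfate permease, had 3544 to 3668 CPM in *urm1 tcd1* and 337 to 457 in the other mutants (interaction 3.39, SE 0.07). Its *elp3* difference was 0.20 (SE 0.05), so that *urm1 tcd1* alone set the value.

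*LEU4*, the first enzyme of leucine synthesis, had 4139 to 4363 CPM in *elp3 deg1*, 3295 to 3340 in *elp3 tcd1*, 1593 to 1601 in *urm1 deg1* and 6038 to 6086 in *urm1 tcd1* (interaction 2.28, SE 0.04). *ARO3* and *ARO4*, which encode the enzymes of the first step of aromatic amino acid synthesis, had 2.05 (SE 0.05) and 2.06 (SE 0.05), and *CPA1*, a carbamoyl phosphate synthetase subunit of the arginine pathway, had 2.20 (SE 0.05). In each of these 4 genes the mean was lowest in *urm1 deg1* and highest in *urm1 tcd1*. *GCN4*, the transcription factor of this regulon, had 1837 to 1937 CPM in *elp3 deg1*, 1464 to 1550 in *elp3 tcd1*, 1207 to 1337 in *urm1 deg1* and 2477 to 2565 in *urm1 tcd1* (interaction 1.29, SE 0.05). Its mRNA was thus also lowest in *urm1 deg1* and highest in *urm1 tcd1*. Between the *elp3* strains *GCN4* was higher in *elp3 deg1*, as were the histidine and the sulfate and methionine lists. The arginine, lysine and aromatic lists were higher in *elp3 tcd1*, and the branched-chain list overlapped between these strains. The part of *GCN4* in the levels of these lists was not tested.

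The Gcn4 element TGACTC was found on either strand in the promoter window of 85.7% of the histidine, 72.7% of the branched-chain and 71.4% of the arginine genes. For the lysine, sulfate and methionine, and aromatic lists the shares were 40%, 26.9% and 26.7%, against 8.09% of all promoters. It was present in 13.5% of the positive and 5.34% of the negative genes. The histidine genes with the largest interaction values and a printed window, *HIS4* (2.07, SE 0.04) and *HIS5*, show it in capitals.
*HIS4* (chrIII:68515-68544, - strand): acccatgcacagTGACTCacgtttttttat
*HIS5* (chrIX:142714-142743, + strand): tcttggatctgtTGACTCacttcaattgat

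Among permeases, *BAP2*, which imports branched-chain amino acids, had 2999 to 3330 CPM in *elp3 deg1*, 1707 to 1724 in *elp3 tcd1*, 1203 to 1229 in *urm1 deg1* and 2761 to 2855 in *urm1 tcd1* (interaction 2.07, SE 0.05), whereas *BIO5*, which takes up a biotin precursor, was lowest in *elp3 deg1* with 100 to 124 CPM (interaction -2.79, SE 0.07). The list of 19 permeases had 9 called above and 7 below 0, 4 positive and 2 negative genes and a median of -0.16. *SNO1*, of vitamin B6 synthesis, had 291 to 313 CPM in *elp3 deg1*, 150 to 159 in *elp3 tcd1*, 50.9 to 61.4 in *urm1 deg1*, 291 to 299 in *urm1 tcd1* and 275 to 278 in WT. Here *urm1 tcd1* and *elp3 deg1* stayed near WT and *urm1 deg1* was 5.39-fold below *urm1 tcd1* (interaction 3.39, SE 0.07). *RIB5*, riboflavin synthase, was 4.51-fold lower in *urm1 deg1* than in *urm1 tcd1* and 1.27-fold higher in *elp3 deg1* than in *elp3 tcd1* (interaction 2.52, SE 0.06).

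**Figure D4:**
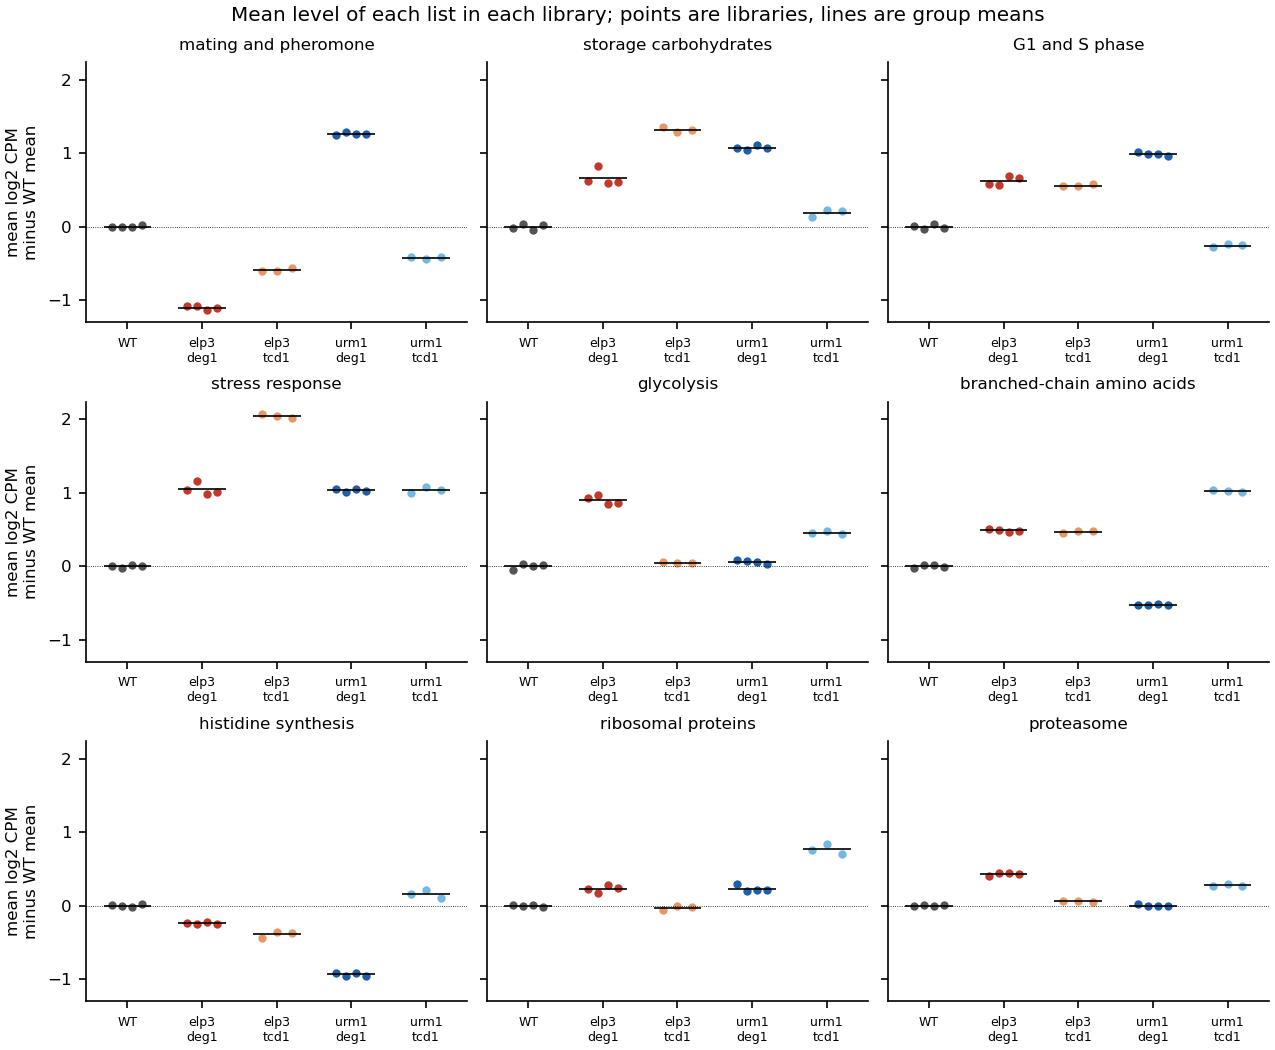
Mean log2 CPM of a gene list minus its WT mean (y axis) in each library, with 1 panel per list, points for libraries and lines for group means. Mating genes are above WT in *urm1 deg1* only (1.24 to 1.28), storage carbohydrates are highest in *elp3 tcd1* (1.28 to 1.36) and glycolysis in *elp3 deg1* (0.85 to 0.97).

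Most genes of the translation apparatus had interaction values above 0. Of 133 tested cytosolic ribosomal protein genes 130 were called above and 1 below 0, and 103 were positive genes, with a median interaction of 0.79, 0.28 in *elp3* and -0.53 in *urm1*. Against WT their mean level was 0.70 to 0.84 in *urm1 tcd1*, 0.18 to 0.28 in *elp3 deg1*, 0.21 to 0.29 in *urm1 deg1* and -0.06 to 0.00 in *elp3 tcd1*. Many of them are near-identical gene pairs, between which reads could be split. Aminoacyl-tRNA synthetases had 21 of 22 genes called above and 1 below 0 with 13 positive genes and a median of 0.89, and their mean level was lowest in *urm1 deg1*, at -0.65 to -0.61 below WT. *GUS1*, glutamyl-tRNA synthetase, had 581 to 602 CPM in *elp3 deg1*, 340 to 376 in *elp3 tcd1*, 400 to 406 in *urm1 deg1* and 545 to 572 in *urm1 tcd1* (interaction 1.19, SE 0.05). Translation factors had 23 of 37 genes above and 3 below 0, 9 positive genes, 1 negative gene and a median of 0.26.

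Ribosome biogenesis factors did not follow the ribosomal proteins. Of 94 tested genes 54 were called below and 9 above 0, with 27 negative genes and 1 positive gene, and the medians were -0.32 for the interaction, -0.30 in *elp3* and 0.06 in *urm1*. The *elp3 deg1* libraries lay below WT by 0.17 to 0.32 log2 units and the other 3 mutants lay 0.04 to 0.12 above it. *NOP14*, of the small subunit processome, had 88.2 to 117 CPM in *elp3 deg1*, 187 to 200 in *elp3 tcd1*, 193 to 227 in *urm1 deg1* and 150 to 159 in *urm1 tcd1* (interaction -1.34, SE 0.09). The PAC element GATGAG was found in the promoter window of 90.4% of these genes and of 18.8% of all promoters, and of 20.4% of the negative and 15.2% of the positive genes. Mitochondrial ribosomal protein genes were split, with 13 of 59 above and 15 below 0, 7 negative genes and a median of -0.02 that changed sign in 8 of the alternative settings.

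Proteasome subunits had 28 of 33 genes above and 2 below 0 and 23 positive genes (median 0.73), with the mean level highest in *elp3 deg1* at 0.41 to 0.44 over WT. Genes of Hsp70, Hsp90 and the heat shock factor had 18 of 28 above and 4 below 0 but only 4 positive genes (median 0.38, with 0.01 in *elp3*), and lay below WT in all 4 mutants. *KAR2* (YJL034W, chrX:381327-383375), the Hsp70 of the endoplasmic reticulum, had 1804, 1920, 1860 and 1907 CPM in *elp3 deg1*, 537, 482 and 532 in *elp3 tcd1*, 526, 510, 501 and 517 in *urm1 deg1* and 1006, 1018 and 982 in *urm1 tcd1*, with 793 to 829 in WT. The *elp3 deg1* and *urm1 tcd1* libraries were above WT and the others below it (interaction 2.82, SE 0.05).

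*INO1* (YJL153C, chrX:134332-135933), inositol phosphate synthase and the first enzyme of inositol synthesis, was likewise highest in *elp3 deg1* and next highest in *urm1 tcd1*, with 3260, 3139, 3325 and 3263 CPM in *elp3 deg1*, 710, 704 and 678 in *elp3 tcd1*, 934, 977, 922 and 881 in *urm1 deg1* and 1913, 1974 and 1968 in *urm1 tcd1*, against 1114 to 1175 in WT. The interaction value was 3.29 (SE 0.05). *OPI3*, a phosphatidylcholine synthesis enzyme, and *ITR1*, the inositol transporter, which like *INO1* answer to the Ino2 and Ino4 activators, had 1.45 (SE 0.05) and 1.03 (SE 0.04). The wider list of 20 fatty acid and phospholipid genes was mixed, with 8 above and 9 below 0, 4 positive and 2 negative genes and a median of -0.01 that changed sign in 9 settings. *NCW2*, a cell wall protein, had 994 to 1100 CPM in *urm1 tcd1* and 195 to 377 in the other mutants, against 672 to 712 in WT (interaction 2.55, SE 0.06). *ECL1*, a gene that extends chronological lifespan when overexpressed, had 68.7 to 76 CPM in *urm1 tcd1*, 30.2 to 37.1 in *elp3 deg1*, 23.5 to 26.2 in *urm1 deg1* and 13.1 to 14.4 in *elp3 tcd1* (interaction 2.81, SE 0.15).

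The respiratory chain had 28 of 39 genes above and 4 below 0, 10 positive and 2 negative genes and a median of 0.55. Its mean level lay above WT in all mutants, from 0.54 to 0.59 in *urm1 deg1* to 0.94 to 0.99 in *elp3 deg1*. *ATP15*, a small subunit of the ATP synthase, had 114 to 125 CPM in *elp3 deg1*, 80.9 to 89.9 in *elp3 tcd1*, 52.5 to 61.5 in *urm1 deg1*, 130 to 146 in *urm1 tcd1* and 50.8 to 61.3 in WT (interaction 1.75, SE 0.09). The TCA cycle did not move with it, with 5 of 14 genes above and 5 below 0, 2 positive genes and a median of -0.08. Its shares of 35.7% above and 35.7% below 0 were near those of all genes (31.3% and 35.2%). The median turned to 0.07 when all 20 libraries were used as labelled.

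**Figure D5:**
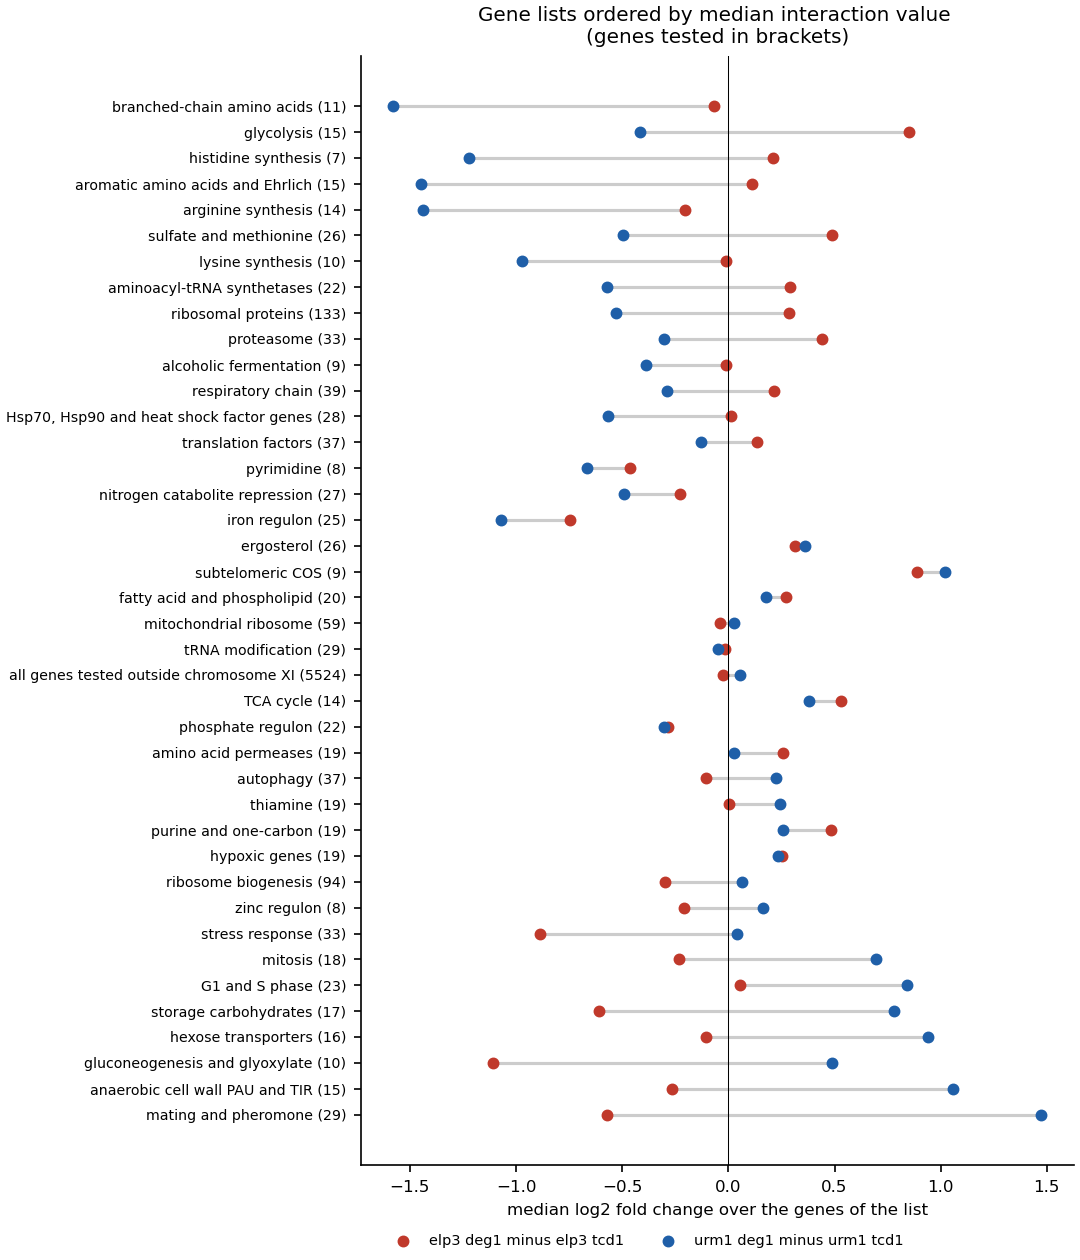
Median log2 fold change of *deg1* over *tcd1* in the *elp3* and in the *urm1* background (x axis) for the gene lists reported, ordered by the median interaction value, with the number of genes tested in brackets. The 2 points of a list lie on opposite sides of 0 for glycolysis (0.85 and -0.41) and mating (-0.57 and 1.47). They lie on the same side for the iron regulon (-0.75 and -1.07), of which 12 of 25 genes were still called above and 4 below 0 for the interaction.

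The remaining lists are described by their counts and median interaction. Over all genes 31.3% were called above and 35.2% below 0. Nitrogen catabolite repression genes had 13 of 27 above and 8 below 0, 6 positive and 3 negative genes and a median of 0.15, and autophagy genes 10 of 37 above and 17 below, 3 positive and 6 negative and -0.22. Purine and one-carbon genes had 7 of 19 above and 11 below, 3 positive and 2 negative and -0.27, and pyrimidine genes 4 of 8 above and 3 below with none in opposite directions and 0.20. Thiamine genes had 3 of 19 above and 5 below, 2 positive and 2 negative and -0.24, phosphate genes 5 of 22 above and 7 below, 1 positive and -0.10, iron genes 12 of 25 above and 4 below, 1 positive and 0.14, and zinc genes 2 of 8 above and 5 below, 3 negative and -0.37. Among the sterol and oxygen lists, ergosterol genes had 10 of 26 above and 6 below, 2 positive and 2 negative and 0.07, hypoxic genes 4 of 19 above and 8 below, 2 positive and 2 negative and -0.29, and the anaerobic PAU and TIR wall genes 0 of 15 above and 9 below, none opposite and -1.40. These last are a subtelomeric family of near-identical copies and are uncertain as single genes, as are the COS genes, with 2 of 9 above and 2 below and 0.03. tRNA modification genes had 7 of 29 above and 6 below, 2 positive and 1 negative and -0.03, with 24.1% above and 20.7% below 0 against the 31.3% and 35.2% of all genes. The medians of the thiamine, phosphate, iron, ergosterol, hypoxic, COS and tRNA modification lists each changed sign in at least 1 alternative setting.

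Codon content was examined because the double mutants impair decoding of CAA or AAA. The median share of AAA codons was 3.06% in positive genes (n = 584), 4.52% in negative genes (n = 637) and 4.11% in all 5294 coding sequences read. Among genes of 100 to 500 CPM the medians were closer, at 3.29%, 4.09% and 3.94%. AAA made up 47.2% of the lysine codons in positive, 60.3% in negative and 58.3% in all genes, whereas CAA made up 77.8%, 66.7% and 69.2% of the glutamine codons. Positive genes were also the more abundant class, and genes above 500 CPM as a whole used AAA for 34.3% of lysine and CAA for 90.9% of glutamine codons. Across genes the interaction value had a Spearman rho of -0.18 with the share of AAA and of 0.04 with the share of CAA, given as a description of mRNA levels that does not measure translation.

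The libraries left out bear on the members in 1 further way. The fourth library labelled *elp3 tcd1* lay nearer to the mean of *urm1 tcd1* replicates 1 to 3 than to that of *elp3 tcd1* replicates 1 to 3 for 558 of 589 positive and 598 of 645 negative genes. The fourth library labelled *urm1 tcd1* did so for 26 and 48 genes. With all 20 libraries used as labelled the opposite-direction genes fell to 252 (118 positive and 134 negative) and the interaction calls to 1886.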

How the data were processed

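The deposited files give counts per gene, which the authors made from TruSeq stranded mRNA libraries with STAR 2.5.1b on build R64. The submitters' notes name HTSeq 1.4.6-p2 as the counter, whereas the file headers give featureCounts 1.4.6-p2 with strand setting 2. Counts of 18 libraries (14 in the contrast, 4 WT) were fitted with edgeR 4.0.16 in R 4.3.3 after TMM scaling, with 1 mean per group and genes kept by filterByExpr with a minimum count of 10. The common biological coefficient of variation was 0.03103. Normalised CPM divides counts by the TMM-scaled total. Opposite-direction genes were called in both simple effects with opposite signs. For naming, the 12 largest interaction values in each direction were taken among genes of at least 20 CPM whose libraries did not overlap in either background, without the deleted genes and their direct neighbours, and members of the gene lists could be named too. The members and the 40 lists were chosen with earlier results of these data known. The result of 1 list is not reported here. The 16 motifs were searched on both strands of 300 bases before the start codon, with sequence and locus tags from RefSeq R64 (6048 of 7126 genes matched). Not all of them are described above. The MCB element ACGCGT was found in 7.69% of negative, 2.22% of positive and 3.68% of all promoters, and in 4.35% of the G1 and S phase genes. The Gcr1 box CTTCC was found in 60% of glycolysis and 44.8% of all promoters. The Rap1 core ACACCC was found in 9.77% of ribosomal protein and 5.75% of all promoters. The test was also run on counts simulated under its own model, with means and dispersions taken from these libraries. That run says nothing of differences between strains or of the chromosome XI level. Alternatives were DESeq2 1.42.0, other scaling factors, other filters and thresholds, a replicate block, all 20 libraries and each library left out.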

Additional observations from a re-analysis of the deposited data

Results flagged for a closer look

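The test of the difference between the *elp3* and *urm1* backgrounds itself flagged 3678 genes, and the 24 selected for naming among them. The values below 0 were -6.03 for *ADH2*, -5.32 for *PRM1*, -4.83 for *DAK2*, -4.69 for *FUS2*, -4.62 for *GID10*, -4.38 for *FAR1*, -4.16 for *FUS1*, -3.94 for *GRE1* and for *ASG7*, -3.83 for *HXT6*, -3.79 for *AGA1* and -3.64 for *IZH4*, on the log2 scale. The values above 0 were 3.39 for *SNO1*, 3.29 for *INO1*, 3.28 for *ADH5*, 3.22 for *GND1*, 3.15 for *MET13*, 2.99 for *ALD6*, 2.82 for *KAR2*, 2.81 for *ECL1*, 2.59 for *HOM2*, 2.55 for *NCW2*, 2.52 for *RIB5* and 2.48 for *PGK1*. Chromosome XI, outside the counts, had a median interaction value of 0.98.

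Single libraries far from the other 3 of their group were found in 5 of 72 groups of 4, and chance flags about 1 in 20 groups. They were the highest WT libraries for *IZH4* (8.31 CPM), *RIB5* (740 CPM) and *INO1* (1175 CPM), the highest *urm1 deg1* library for *RIB5* (313 CPM) and the highest *elp3 deg1* library for *GND1* (1634 CPM).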

How the results depend on the processing

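The 24 named genes were chosen for the largest interaction values on these same libraries, so that a kept sign is likely. The sign of their interaction held in all 528 alternative values, of which 523 stayed called. The other 5, all with the 20 libraries as labelled, did not. In that setting 14 of the 24 were no longer called in opposite directions, and 1 simple effect changed sign in *DAK2* (*urm1* -0.16), *GRE1* (*urm1* -0.09), *NCW2* (*elp3* -0.20) and *ADH5* (*elp3* -0.41). The counts moved by over 1.5 times under 2 choices. With all 20 libraries as labelled the calls were 1886 for the interaction, 2016 in *elp3*, 2413 in *urm1* and 252 in opposite directions, and this setting places 2 libraries that go against their labels. With a fold threshold added they were 1191, 412, 813 and 341. DESeq2 gave 3399, 3030, 3475 and 1092 calls. Leaving out 1 replicate at a time gave 3517 to 3632 interaction calls, 3045 to 3321 in *elp3*, 3474 to 3713 in *urm1* and 1127 to 1217 opposite-direction genes, of which 1112 to 1201 were among the 1234. The replicate block gave 3662, 3245, 3642 and 1197 calls. On average same-numbered libraries did not deviate together (mean r 0.002 over 19 pairs, -0.0717 to 0.1012). Between *elp3 tcd1* and *urm1 tcd1*, however, the same-numbered pairs had r of 0.1012, 0.0894 and 0.0514. The differently numbered pairs of these groups had r of -0.0819 to -0.0082. A pairing of these groups alone was not tested. List medians changed sign in 30 of 880 alternative values, in 10 lists. With totals of 3273876 to 3926511 reads, levels under 0.764 to 0.916 CPM could not be told from 0.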
